A study of Homo sapiens with 6 samples.

Results

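Immunoglobulin genes encode the heavy and light chains of antibodies. The members described here are the rows of the deposited table whose symbol begins with a heavy (IGH), kappa (IGK) or lambda (IGL) constant, variable (V) or joining (J) prefix and that have a count above 0 in any of the 6 libraries. The name rule took 57 of 35750 rows, 55 had a count above 0, and 1 of these, IGHMBP2, is no immunoglobulin gene and is given apart, which leaves 54 members. The members were selected on these counts, so their levels are a description, and no test over them is offered as support.

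The libraries come from T98G, a human glioblastoma cell line grown in medium with 10% fetal bovine serum. The 2 groups hold 3 libraries each. One is labelled shControl, cells with a control short hairpin RNA, and the other shSLC1A5, cells labelled as an SLC1A5 knockdown, and the series asks how depletion of this glutamine transporter changes expression. Neither the vector, the hairpin sequence nor the number of clones is given in the sources used here, and the labels do not tell separate cultures from repeat libraries of a culture. The p-values therefore rest on library-to-library spread, which may be technical. Libraries held 59327548 to 70802167 counts of poly(A)-selected RNA, and levels are given as CPM, counts scaled to 1000000 per library. SLC1A5 itself stood at 356 to 363 CPM in shControl and 328 to 329.6 CPM in shSLC1A5, a log2 fold change of -0.14 by edgeR's quasi-likelihood test (adjusted p = 1.93e-04), so groups are named below by their labels. VIM and CD44, both abundant in cultured glioblastoma lines, had 131995 to 153137 counts in the 6 libraries, while GFAP, S100B and SOX2, glial genes outside the naming rule, had at most 28.

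An antibody is made of paired heavy and light chains. In a developing B lymphocyte a V gene is joined to a J gene (with a D gene between them in the heavy chain), and the joined exon is spliced to a constant region that sets the isotype. Each B cell keeps, as a rule, a single heavy and a single light chain rearrangement. IgM and IgD are spliced from a shared precursor transcript in B cells that have not switched class, and IgG and IgA follow class switching.

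The sequences of IGHV3-11, the heavy chain V gene with most counts, and of the heavy and kappa J genes with a count are shown. They come first because the results turn on which of several related genes was counted. They are reference sequences of GENCODE 29 on GRCh38, not sequences of the libraries. IGHV3-11 (chr14:106116635-106117204, minus strand) is printed as the last 300 bases of its coding sequence of 353 bases, with the bases TATTACTGT in capitals, which encode the conserved tyrosine, tyrosine and cysteine at the end of the V exon. These letters, searched on the coding strand, occur in 58 of 59 IGHV transcripts of the functional class. The main kappa V gene, IGKV3-20, lies at chr2:89142574-89143160 on the minus strand.
IGHV3-11: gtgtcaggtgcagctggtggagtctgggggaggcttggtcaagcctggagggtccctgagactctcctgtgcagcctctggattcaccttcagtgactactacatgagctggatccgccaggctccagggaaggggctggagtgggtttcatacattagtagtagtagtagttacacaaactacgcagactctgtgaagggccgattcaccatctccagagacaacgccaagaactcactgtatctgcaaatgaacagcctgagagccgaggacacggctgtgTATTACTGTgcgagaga

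The closest relative of IGHV3-11 in the annotation was IGHV3-48, at 94.1% identity and with a longest shared run of 103 bases, and that of IGKV3-20 was IGKV3D-20, at 98.6% identity with a shared run of 136 bases. Neither relative is analysed here. Reads were 150 bases long, and how multiply matching reads were assigned is not given in the sources used here, so a part of the counts of each gene could belong to such a relative. Among the members, the gene most like IGHV3-11 was IGHV3-30 (87.9%), and the one most like IGKV3-20 was IGKV1-39 (73.7%).

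The J genes are much shorter. They are printed with the motif of each class in capitals, which covers the codons of a conserved tryptophan (heavy) or phenylalanine (kappa), glycine, any residue and glycine. It was searched as TGGGGC for the heavy chain or TTCGGC for kappa, followed by 3 free bases, GG, 1 free base and AC. On the coding strand 6 of 6 heavy and 4 of 5 kappa J genes hold these letters. All J genes with a count in these 2 loci are shown, on the minus strand at chr14:105865199-105865250 (IGHJ2), chr14:105864215-105864260 (IGHJ4), chr14:105863814-105863862 (IGHJ5), chr14:105863198-105863258 (IGHJ6), chr2:88861221-88861258 (IGKJ3), chr2:88860886-88860922 (IGKJ4) and chr2:88860568-88860605 (IGKJ5).
IGHJ2: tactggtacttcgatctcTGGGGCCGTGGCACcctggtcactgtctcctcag
IGHJ4: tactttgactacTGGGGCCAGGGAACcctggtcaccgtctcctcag
IGHJ5: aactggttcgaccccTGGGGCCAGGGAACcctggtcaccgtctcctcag
IGHJ6: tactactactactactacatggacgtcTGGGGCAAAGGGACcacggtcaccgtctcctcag
IGKJ3: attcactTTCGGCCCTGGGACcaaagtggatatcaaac
IGKJ4: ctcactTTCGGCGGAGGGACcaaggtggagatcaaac
IGKJ5: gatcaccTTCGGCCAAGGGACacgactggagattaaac

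IGHJ4 and IGHJ5 share a run of 35 bases, whereas IGHJ2 shares at most 11 bases in a row with IGHJ4, IGHJ5 or IGHJ6, and IGKJ3 at most 11 with IGKJ4 or IGKJ5. All 9 J genes had 8 counts or fewer in every library. Because a J gene is shorter than a read, a few counts give it a high FPKM (fragments per kilobase of gene and sequenced depth). The text therefore describes J genes by their counts, and only a figure shows IGHJ2 and IGKJ3 in FPKM.

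Immunoglobulin counts were found almost wholly in the libraries labelled shSLC1A5. The members together had 33, 27 and 50 counts in shControl and 1404, 672 and 1055 in shSLC1A5. Scaled to depth this was 0.598 ± 0.217 CPM in shControl and 15.2 ± 4.98 CPM in shSLC1A5 (SD, n = 3), and the groups did not overlap. Replicate 1 of shSLC1A5 was highest at 19.8 CPM and replicate 2 lowest at 9.92 CPM. The number of members with any count was 6, 7 and 8 in the shControl libraries and 42, 17 and 16 in shSLC1A5. In bulk RNA, fewer cells of a type and less RNA per cell cannot be told apart.

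**Figure D1:**
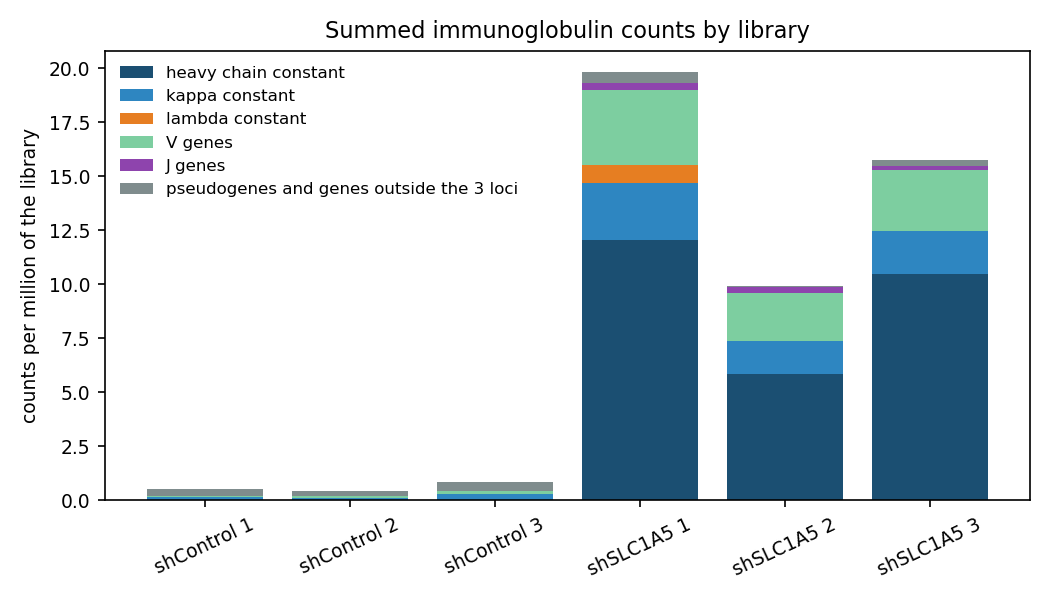
Summed CPM (y axis) of all 54 immunoglobulin members in each of the 6 libraries (x axis), stacked by class of gene. The 3 shControl libraries reach at most 0.843 CPM, and lambda constant counts appear in shSLC1A5 replicate 1 alone.

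By pattern, 7 of the 54 members had 0 counts in every shControl library and a count in every shSLC1A5 library, against 0.763% of the 34207 rows with any count in the table. A further 25 members had counts in shSLC1A5 replicate 1 alone, against 3.79% of those rows. In the other shSLC1A5 libraries 4 members (replicate 2, 2.39% of rows) and 2 members (replicate 3, 2.38%) had counts there alone, and in shControl 0 (replicate 1, 2.06%), 0 (replicate 2, 2.24%) and 3 members (replicate 3, 1.9%). In all, 10 members had counts in shSLC1A5 replicate 2 or 3, not in every shSLC1A5 library and none in shControl, and 12 had a count in some shControl library. The reverse pattern, 0 counts in each shSLC1A5 library and a count in each shControl library, was found in 0 members and in 0.263% of rows. Every shSLC1A5 level exceeded every shControl level in CPM for 8 members, the 7 above and IGKC, near the 13.8% of rows that did so. The 7 shared members were IGHM, IGHD, IGHV3-11, IGHJ2 and IGHJ4 of the heavy chain locus and IGKV3-20 and IGKJ3 of the kappa locus. These 7 made up 68.2% of immunoglobulin counts in shSLC1A5 replicate 1 (95% Wilson interval 65.8% to 70.6%), 80.7% in replicate 2 (77.5% to 83.5%) and 85.1% in replicate 3 (82.8% to 87.1%). Intervals and floors here cover counting error only. Rows with 4 counts outnumbered rows with 3 in every library (1337 against 850 in shControl replicate 1), so a count may not be an independent fragment and the intervals may be too narrow.

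IGHM, the constant region of IgM (ENSG00000211899, chromosome 14, 105851705 to 105856218, minus strand), was the most abundant member. It was listed at 0 in all 3 shControl libraries and had 729, 378 and 688 counts in shSLC1A5. Its level was 8.71 ± 2.72 CPM in shSLC1A5 (SD, n = 3), at least 179.6-fold higher than the floor of 3 counts per library in shControl. Replicates 1 and 3 were nearly equal at 10.3 CPM each and replicate 2 was lower at 5.58 CPM.

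IGHD, the constant region of IgD, had 19, 13 and 15 counts in shSLC1A5 and 0 in each shControl library. It was at least 4.70-fold higher than the same floor, and IGHM counts were 38.4, 29.1 and 45.9 times those of IGHD. IGHM made up 85.5% of heavy chain constant counts in replicate 1 (Wilson interval 82.9% to 87.7%), 95.7% in replicate 2 (93.2% to 97.3%) and 97.9% in replicate 3 (96.5% to 98.7%). Replicate 1 therefore held a smaller share of IgM than the other two, with intervals that did not overlap.

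IGHD took 2.23%, 3.29% and 2.13%, and the remainder in replicate 1 was IgG and IgA. IGHG1, IGHG2, IGHG3 and IGHG4, the constant regions of the IgG subclasses, had 26, 27, 7 and 4 counts there, which is 7.50% of heavy chain constant counts (5.92% to 9.47%). IGHA1 and IGHA2, those of IgA, had 26 and 15 counts, or 4.81% (3.56% to 6.46%). In replicate 2 IgG was represented by 4 counts of IGHG4, and IgA by 0 of 395 counts, which allows a share of up to 0.759% by the floor of 3 counts (Wilson upper bound 0.963%). In replicate 3 both were at 0 of 703 counts, which allows up to 0.427% by that floor (0.543%). All 6 genes were listed at 0 in shControl. IGHG1 shares 95.1% of its coding bases with IGHG2, and IGHA1 92.2% with IGHA2, so the split among subclasses is uncertain.

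Light chain counts were mostly kappa. IGKC, the kappa constant region (ENSG00000211592, chromosome 2, 88857161 to 88857683, minus strand), had 10, 6 and 17 counts in shControl and 186, 106 and 133 in shSLC1A5. It was the only constant region gene with counts in shControl, and its groups did not overlap. Its level went from 0.180 ± 0.0975 to 2.06 ± 0.535 CPM (SD, n = 3), an 11.4-fold ratio of means. IGKC lies inside a longer transcript of the same strand, AC244205.1, so reads of the 2 genes cannot be told apart there.

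Lambda constant genes had counts in shSLC1A5 replicate 1 alone. IGLC2 had 47 counts, IGLC3 had 7 and IGLC1 had 6, and all were at 0 in the other 5 libraries. IGLC2 and IGLC3 have 99.1% identical coding bases, and IGLC1 overlaps IGLL5, so their separate counts are uncertain. Kappa made up 75.6% of light chain constant counts in replicate 1 (69.9% to 80.6%). In replicates 2 and 3 lambda was at 0 of 106 and 0 of 133 counts, which allows shares of up to 2.83% and 2.26% by the floor of 3 counts. The Wilson intervals of the kappa share there began at 96.5% and 97.2%.

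**Figure D2:**
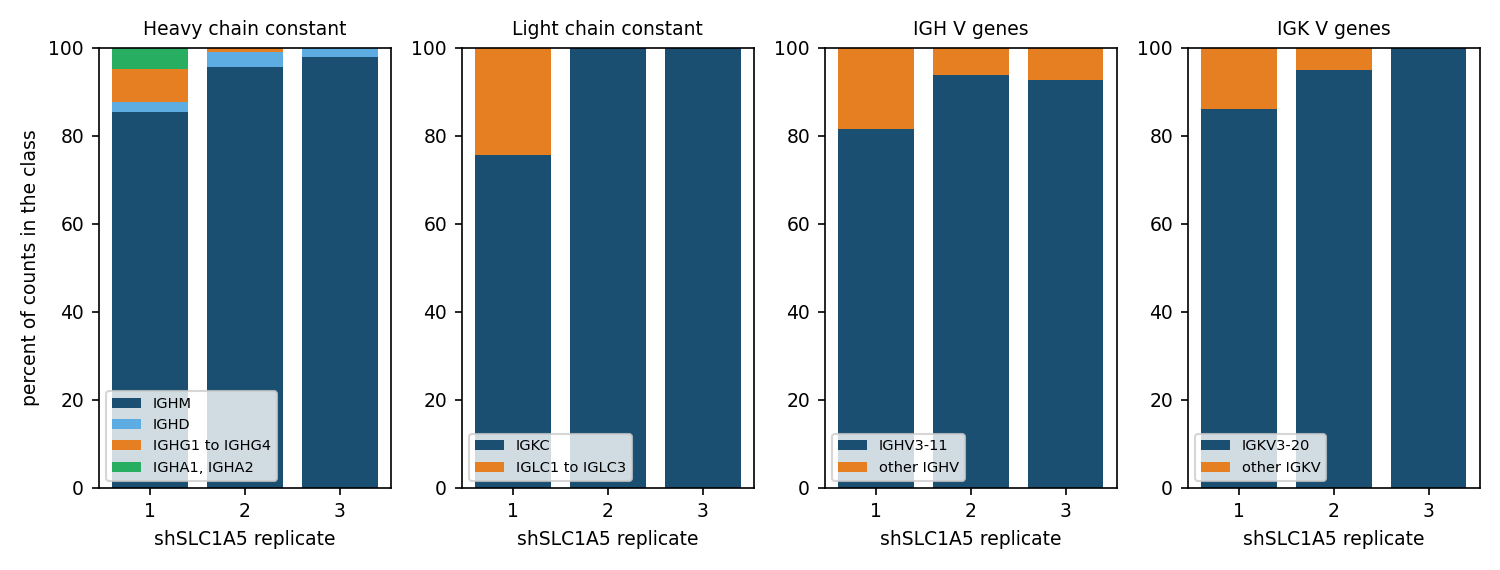
Percent of counts within 4 classes of immunoglobulin gene (y axis) in the 3 shSLC1A5 libraries (x axis, replicate number). IGHM, IGKC, IGHV3-11 and IGKV3-20 take most of their class in every library, and IgA and lambda constant counts are visible in replicate 1 alone.

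Among heavy chain V genes, IGHV3-11 (ENSG00000211941) stood alone. It had 57, 45 and 51 counts in shSLC1A5 and 0 in each shControl library, at least 15.3-fold above the floor. It held 81.4% of IGH V counts in replicate 1 (70.8% to 88.8%), 93.8% in replicate 2 (83.2% to 97.9%) and 92.7% in replicate 3 (82.7% to 97.1%). The next 2 V genes of the locus were IGHV3-30, with 6 counts in replicate 1, and IGHV1-24, with 4 counts in replicate 3. In total 8 IGH V genes had a count: 5 in replicate 1, 2 in replicate 2, 2 in replicate 3 and 1 in shControl, where IGHV6-1 had 4 counts in replicate 3.

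Among kappa V genes, IGKV3-20 (ENSG00000239951) had 141, 92 and 130 counts in shSLC1A5 and 0 in each shControl library, at least 36.3-fold above the floor. It held 86.0% of IGK V counts in replicate 1 (79.8% to 90.5%), 94.8% in replicate 2 (88.5% to 97.8%) and 130 of 130 in replicate 3 (97.1% to 100%). Replicate 1 held all 7 kappa V genes that had a count, among them IGKV4-1 with 10 counts. IGKV2D-28 had 1 count there and 5 in replicate 2.

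Lambda V genes had few counts in any library. IGLV5-52 had 1, 6 and 3 counts in shControl and 3, 0 and 3 in shSLC1A5, so its groups overlapped. IGLV10-54 and IGLV2-23 had 4 counts each in shSLC1A5 replicate 1, the first within a long gene model that overlaps 26 others.

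One J gene led in each of the heavy chain and kappa loci. IGHJ2 had 5, 8 and 8 counts in shSLC1A5, or 5 of 9, 8 of 12 and 8 of 9 heavy chain J counts, and IGKJ3 had 5 in each library, or 5 of 7, 5 of 7 and 5 of 5 kappa J counts. IGHJ4 had 2, 1 and 1 counts, IGHJ5 had 2 in replicate 2, and IGHJ6 had 2, 1 and 0. All these J genes were at 0 in shControl. IGKJ3, IGKJ4 and IGKJ5 lie, like IGKC, inside AC244205.1 on the same strand, so reads of that transcript cannot be told apart there. The Wilson intervals for IGHJ2 reach from 26.7% to 81.1% in replicate 1, so J shares are loosely set at this depth. Lambda J genes had counts in replicate 1 alone, 6 for IGLJ2 and 1 for IGLJ3.

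Per length, the constant and V genes of the kappa chain stood at similar levels. In shSLC1A5, IGKC was at 4.44, 2.66 and 3.38 FPKM and IGKV3-20 at 4.40, 3.00 and 4.33 FPKM, a ratio of V to constant FPKM of 0.992, 1.13 and 1.28. IGHM was at 4.86, 2.66 and 4.89 FPKM, 1.10, 0.999 and 1.45 times IGKC. IGHV3-11 was at 1.502, 1.23 and 1.42 FPKM, only 0.309, 0.462 and 0.291 times IGHM. The heavy chain V gene thus had less than its constant region in all 3 libraries, and the kappa V gene did so in replicate 1 alone, at a ratio of 0.992. Gene models that differ from the expressed transcript also shift FPKM, and their part was not tested.

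**Figure D3:**
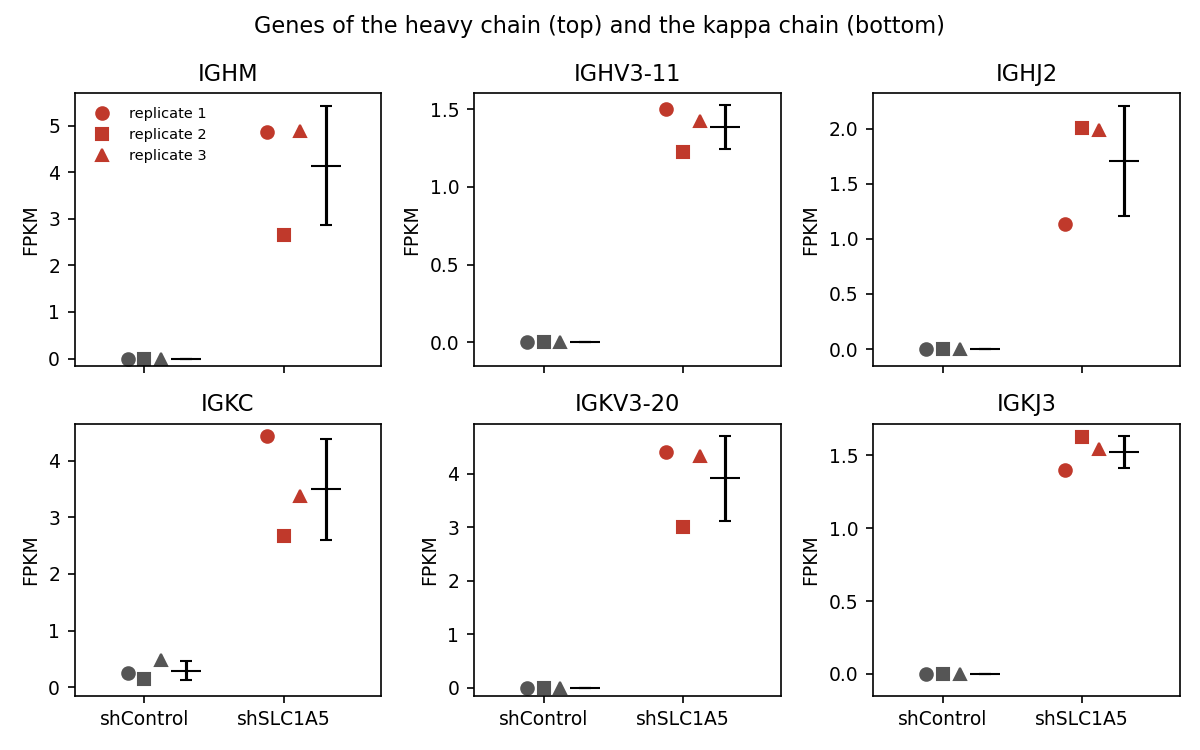
FPKM (y axis) of 3 heavy chain genes (IGHM, IGHV3-11, IGHJ2) and 3 kappa genes (IGKC, IGKV3-20, IGKJ3) in the shControl and shSLC1A5 libraries (x axis). Symbols are replicates 1 to 3, and the dash with a bar is the mean and SD of 3 libraries. All genes but IGKC are at 0 in shControl, and every shSLC1A5 value lies above every shControl value. The FPKM of IGHJ2 and IGKJ3 rest on 8 counts or fewer per library and are not comparable with those of the longer genes.

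In the fit of all genes, 11841 rows had a mean of at least 1 FPKM and were tested by edgeR's quasi-likelihood test, with 20.2% called higher and 19% lower in shSLC1A5 at an adjusted p under 0.05. Of the 54 members 3 passed this minimum, IGHM, IGKC and IGKV3-20, and all 3 were called higher. They passed through their shSLC1A5 values, so nothing is read from that count. IGKC, the 1 of them with counts in both groups, had a log2 fold change of 3.50 (SE 0.372, edgeR adjusted p = 3.79e-05).

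IGHMBP2, which the name rule also took, encodes a helicase that was first found as a binder of the immunoglobulin mu switch region and is widely expressed. It had 1157, 1332 and 1184 counts in shControl and 1858, 1576 and 1530 in shSLC1A5, more than all immunoglobulin members together in every library. Per length it stood at 1.80 ± 0.141 FPKM in the control group against 2.20 ± 0.158 FPKM (SD, n = 3), and the groups did not overlap. It rose by 0.27 on the log2 scale (SE 0.077, edgeR adjusted p = 0.0169). Leaving out replicate 1 of shControl (adjusted p = 0.0707) or of shSLC1A5 (0.0905) ended the call, and edgeR's adjusted p with any other library left out ran from 0.0169 to 0.0415.

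The levels of the 13 pseudogenes and genes outside the 3 loci overlapped between the groups. They had 22, 15 and 26 counts in shControl and 35, 4 and 17 in shSLC1A5, or 0.341 ± 0.0999 and 0.269 ± 0.218 CPM (SD, n = 3). IGHEP2, a pseudogene of the IgE constant region that lies within JAK2 on the same strand, made up most of them in shControl replicates 1 and 3, with 18, 4 and 21 counts in shControl and 15, 4 and 4 in shSLC1A5. Without this class, the 41 members within the loci were at 0.256 ± 0.129 CPM in shControl and 14.9 ± 4.77 CPM in shSLC1A5.

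Markers of other cells were read from 14 lists of 121 genes, of which 103 have a row. Of 17 B cell genes with a row, 11 had every shSLC1A5 library above every shControl library in CPM, against 13.8% of all rows with a count. MS4A1, which encodes the B cell antigen CD20, had 0 counts in each shControl library and 168, 90 and 102 in shSLC1A5. CD22, an inhibitory receptor, went the other way with 668, 734 and 675 against 633, 686 and 572 counts (log2 fold change -0.30, edgeR adjusted p = 0.0485). Leaving out shSLC1A5 replicate 1 ended that call. Without CD22, which was left out after its values were seen, the other 16 summed to 0.441 to 0.775 CPM in shControl and 5.42 to 7.77 CPM in shSLC1A5, and with it to 10.97 to 12.2 and 14.3 to 16.7 CPM.

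Other B cell genes, chosen after their values were seen, were higher in every shSLC1A5 library than in any shControl library. CD79A, a signalling chain of the B cell receptor, had 0, 8 and 5 counts in shControl and 49, 28 and 32 in shSLC1A5. POU2AF1, a coactivator of immunoglobulin promoters, had 0, 0 and 6 against 57, 47 and 51, and BANK1, a B cell adaptor, had 0 in shControl and 33, 25 and 29 in shSLC1A5. CXCR5, a chemokine receptor of B cells also named after its values were seen, was at 0 in all 6 libraries. Relative to MS4A1, counts of IGHM were 4.34, 4.20 and 6.75 times as many in shSLC1A5 replicates 1, 2 and 3, and those of IGKV3-20 were 0.839, 1.02 and 1.27 times as many.

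Plasma cell genes were mixed. JCHAIN, which links IgM pentamers and IgA dimers, had 0 counts in each shControl library and 98, 7 and 10 in shSLC1A5, high in replicate 1, the library with IgA. IRF4, a transcription factor of B and plasma cells, had 0, 0 and 4 counts in shControl and 131, 104 and 102 in shSLC1A5. JCHAIN and IRF4 were also named after their values were seen. SDC1 and FKBP11, which many cell types express, had 1507 to 7523 counts per library. Of 3 tested plasma cell genes 1 was called higher, SDC1 (log2 fold change 0.20, edgeR adjusted p = 0.00113), and 1 lower, PRDM1 (named after its values were seen), against 20.2% and 19% of all tested genes, and the summed list ran from 127 to 130.2 CPM in shControl and from 138 to 143 CPM in shSLC1A5. In the list of B cell development and recombination 3 of 7 genes had a row and none passed the minimum for testing, and its sum was 0.394 to 1.05 CPM in shControl and 0.466 to 0.731 CPM in shSLC1A5. RAG1, which cuts DNA for V to J joining, had 25 to 66 counts in shControl and 30 to 49 in shSLC1A5, and RAG2 had at most 5.

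Among genes of antibody signalling and binding, the most abundant had high counts in both groups and others were near 0 in shControl. In B cell receptor signalling 1 of 3 tested genes was called higher, CD81 (0.29 on the log2 scale), and 1 lower, the kinase LYN (-0.14), against 20.2% and 19% of all tested genes, with a sum of 238 to 249 CPM in shControl and 266 to 270.4 CPM in shSLC1A5. BLNK, a B cell adaptor named after its values were seen, had 4, 0 and 0 counts in shControl and 13, 27 and 35 in shSLC1A5. Among receptors for immunoglobulin, 2 of 4 tested genes were called higher, or 1 of 3 without shSLC1A5 replicate 1, against 20.2% of all tested genes, with sums of 55.9 to 65.7 and 67.3 to 73.0 CPM. FCGRT, the neonatal Fc receptor that recycles IgG, rose by 0.65 on the log2 scale (SE 0.094, edgeR adjusted p = 3.18e-04), and TRIM21, a cytosolic receptor, was at -0.12 (adjusted p = 0.203). FCGR2B, FCGR1A and FCGR3A, Fc receptors also named after their values were seen, were at 0 in each shControl library. FCGR2B had 18, 19 and 13 counts in shSLC1A5, while FCGR1A and FCGR3A had 51 and 140 in replicate 1 and 0 in the other two. Of 3 tested MHC class II genes 1 was called lower, or 2 without shSLC1A5 replicate 1, against 19% of all tested genes. CD74, the invariant chain, fell by 0.51 on the log2 scale (edgeR adjusted p = 8.07e-05), and CIITA, the class II transactivator, had 1131 to 1239 counts in shControl and 1522 to 1668 in shSLC1A5 and was below the minimum for testing. HLA-DQA1 and HLA-DQB1, named after their values were seen, were at 0 in every shControl library with 55 to 89 counts in shSLC1A5. HLA-DRB1, also named so, had 14, 6 and 23 counts in shControl and 97, 74 and 82 in shSLC1A5. In 5 of the 8 class II genes every shSLC1A5 library exceeded every shControl library in CPM, against 13.8% of all rows with a count. HLA-DRA and HLA-DPA1, also named after their values were seen, were not among them. HLA-DRA had 250, 289 and 283 counts in shControl and 348, 264 and 355 in shSLC1A5 (log2 fold change 0.07, edgeR adjusted p = 0.758). HLA-DPA1 had 474, 508 and 412 against 462, 411 and 353 (-0.34, edgeR adjusted p = 0.0601). The class II sum, in which CD74 and CIITA weigh most, was 60.5 to 63.3 CPM in shControl and 58.0 to 62.3 CPM in shSLC1A5. All tested genes together had a median log2 fold change of -0.01.

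Genes of blood cells other than B cells set shSLC1A5 replicate 1 apart. That library held all IgA and lambda constant counts and most IgG counts. Neutrophil genes summed to 76.4 CPM there, against 2.60 and 3.30 CPM in replicates 2 and 3 and 1.27 to 1.56 CPM in shControl. S100A8, a neutrophil calcium-binding protein, had 2301 counts in replicate 1, 17 and 4 in replicates 2 and 3, and 0, 5 and 4 in shControl, and its partner S100A9 had 830 in replicate 1 and at most 19 elsewhere. The list had 3 tested genes, all called higher by edgeR, against 20.2% of all tested genes. Without shSLC1A5 replicate 1, 0 of the list passed the expression minimum, so nothing is read from that count. Monocyte genes summed to 22.4 CPM in replicate 1 and 3.73 to 4.19 CPM in the other 5 libraries, platelet genes to 6.20 and 2.73 to 3.36 CPM, and red cell genes to 14.1 and 0 to 0.295 CPM. The lysozyme gene LYZ had 508 counts in replicate 1 and at most 26 elsewhere, and VNN2 had 769 and at most 185. TUBB1, a platelet tubulin, had 82 and at most 54, and GP1BA had 157 in replicate 1 and 170 in replicate 3. ALAS2, an enzyme of heme synthesis in red cells, had 773 and at most 6, and SLC4A1, the red cell anion exchanger, had 225 and 0 elsewhere. The alpha globin genes HBA1 and HBA2, named after their values were seen, were at 0 in replicate 1, with at most 11 counts in any library. CSF1R and MS4A7 of the monocyte list, also named so, did not stand out in replicate 1. CSF1R had 62, 57 and 73 counts in shControl and 66, 76 and 48 in shSLC1A5, and MS4A7 had 0, 4 and 0 against 0, 10 and 14. Replicates 2 and 3 had IgM, IgD and kappa counts but no lambda constant counts. There, S100A12, CXCR2, SLC4A1, PPBP and PF4, named after their values were seen, were at 0. Other genes of these lists, named in the same way, were not. CSF3R had 17 and 4 counts in replicates 2 and 3, and 4, 0 and 8 in shControl. FPR1 had 15 and 32, against 4, 17 and 15. MMP25 had 127 and 154, against 91, 55 and 45, and exceeded shControl in CPM in every shSLC1A5 library.

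T cell genes stayed low, at 0.0631 to 0.239 CPM in shControl and 0.236 to 0.650 CPM in shSLC1A5, and CD3E, outside the naming rule, was at 0 in all libraries. TRAC and TRBC2, constant genes of the T cell receptor, had 23, 14 and 8 and 12, 2 and 10 counts in shSLC1A5 against at most 4 in shControl. CD6, LCK and CD3D, named after their values were seen, went the other way and were at 0 in every shSLC1A5 library. In shControl CD6 had 0, 8 and 6 counts, LCK 0, 4 and 4, and CD3D 0, 3 and 0. Natural killer cell genes summed to 0.792 to 1.03 CPM in shControl and 1.37 to 1.596 CPM in shSLC1A5, where NKG7 had 22, 16 and 13 counts against 8, 0 and 8 in shControl and KLRF1 had 61 to 73 against 35 to 65. Liver genes were at 7.08 to 8.27 CPM in shControl and 5.49 to 9.32 CPM in shSLC1A5, nearly all of it SERPINA1, and ALB had at most 4 counts. Of the glial and glioblastoma list 4 of 4 tested genes were called lower by edgeR, against 19% of all tested genes. The list summed to 5391 to 5439 CPM in shControl and 4806 to 4914 CPM in shSLC1A5. NES, below the minimum for testing and named after its values were seen, went the other way. It had 32, 45 and 36 counts in shControl and 92, 76 and 72 in shSLC1A5. The summed B cell markers were higher in all 3 shSLC1A5 libraries, as the immunoglobulin counts were. The sums for neutrophils, monocytes, platelets and red cells were highest in replicate 1, the library with IgA and lambda constant counts. Not every gene of these lists followed its sum, and the part of such cells in the result was not tested.

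**Figure D4:**
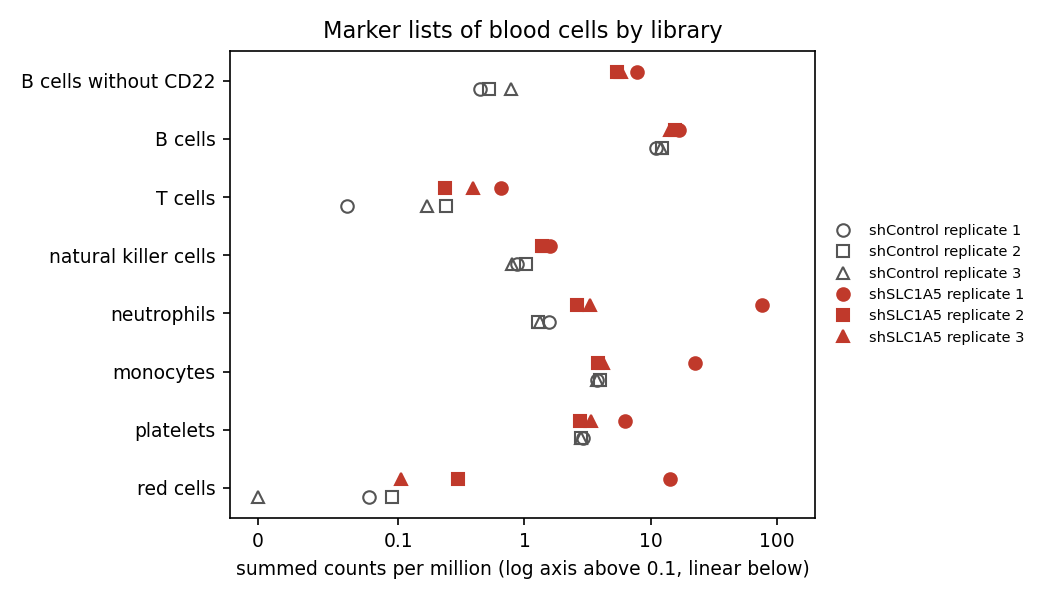
Summed CPM (x axis, log scale above 0.1 and linear below) of marker genes of 7 blood cell types in each library, with B cells also shown without CD22. Open grey symbols are shControl and filled red symbols shSLC1A5, and replicate 1 of shSLC1A5 (filled circle) lies apart for neutrophils, monocytes, platelets and red cells.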

How the data were processed

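RNA of 6 T98G libraries was sequenced as pairs of 150 bases after TRIzol extraction and oligo(dT) capture, per the labels' protocols. The submitters' processing notes name fastp, HISAT2 and StringTie, with no version or role. For the genome build, the strand setting and multiply matching reads, the rule is not given in the sources used here. Per the file headers, the deposited table holds counts per gene, taken as raw, and FPKM, both made by the authors. All 54 members have the coordinates of GENCODE 29 on GRCh38, and 0 columns of per-sample values were left unmapped. Rows averaging 1 FPKM or more were tested with edgeR 4.0.16 in R 4.3.3 (TMM, group alone, quasi-likelihood F test, Benjamini-Hochberg adjustment over all tested genes). The SE is the log2 fold change divided by the square root of F. CPM are counts scaled to a library total of 1000000. Shares carry 95% Wilson intervals. Folds against a group at 0, and limits for shares of 0, use a floor of 3 counts per library. The edgeR fit was tested on simulated data, and the shares, intervals, floors and row patterns were not.

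The members, lists and naming rule were chosen with earlier results of these data known. Genes named are all constant region genes, the 3 V genes per locus and 2 genes per list of highest counts, and 10 other genes near 0 in shControl, with genes that mark sex not considered. Marker genes outside this rule are marked, and members may be named beyond it. Libraries of a group differed by more than counting noise in every pair (chi-square per gene 9.84 to 16.7). Alternatives were DESeq2 1.42.0, median-of-ratios scaling, other filters, a replicate block and leaving out each library.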

Additional observations from a re-analysis of the deposited data

How the results depend on the processing

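The edgeR fit called 3 of 3 tested immunoglobulin members higher, against 4641 of 11841 tested genes called in either direction. With filterByExpr it was 5 of 6 members and 4706 of 19527 genes. A mean of at least 0.1 FPKM gave 6 of 9 and 4493 of 19470, and no filter gave 5 of 54 and 3466 of 34207. When each library was left out, 3 to 4 members and 3867 to 4082 genes were called. Members were selected on these counts, so nothing is read from how many were called. The number of all genes called, 4641, ran from 3466 with no filter to 5002 with DESeq2. Replicate numbers did not pair the libraries (correlations of same-numbered deviations -0.15, 0.04 and -0.03), and with the replicate block 4470 genes and 3 members were called. Keeping IGHMBP2 in the sum raised the shSLC1A5 mean from 15.2 to 39.3 CPM. The other 6 alternatives for that mean gave 11.8 to 17.8 CPM, within 1 SD. The mean kappa share of light chain constant counts, 91.9%, ran from 87.8% to 100% (the last without shSLC1A5 replicate 1), and the mean IGHM share, 93.0%, from 90.6% to 96.8%. IGHMBP2 also lost its call with no filter (adjusted p = 0.0785). Depth limits the J genes, with 8 counts or fewer per library, and the V genes other than IGHV3-11 and IGKV3-20, with 10 or fewer.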

Other observations

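Outside the immunoglobulin loci, the 10 genes with at most 3 counts in all over shControl and the highest lowest level in shSLC1A5 were CDH5, MS4A1, FABP5, CD93, HLA-DQB1, HLA-DQA1, CCL22, SASH3, HLA-DRB5 and NLRP2, taken by that pattern and so given as values. All 10 had 0 counts in each shControl library. CDH5, the cadherin of endothelial junctions, had 118, 100 and 98 counts in shSLC1A5, and CD93, a receptor of endothelial and myeloid cells, had 170, 78 and 97. CCL22, a chemokine of dendritic and B cells, had 55, 47 and 49 counts, and SASH3, an adaptor of lymphocytes, had 63, 38 and 49. FABP5, a fatty acid binding protein with many pseudogene copies, had 83, 112 and 80 counts, and its count is uncertain for that reason. HLA-DRB5, a class II beta chain close in sequence to HLA-DRB1, had 74, 33 and 49, and NLRP2, a cytosolic receptor, had 74, 50 and 30. CDH5 was within 1.46 to 1.67 CPM in the 3 libraries, while IGHM ranged from 5.58 to 10.3 CPM.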
